A study of Mus musculus with 4 samples.

Results

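The genes described here encode the factors that start and extend protein synthesis on cytosolic ribosomes, with the cytoplasmic poly(A)-binding proteins that work beside them. They were taken by name from the probe annotation of the array, as every symbol of the eIF1 to eIF6, eEF1, eEF2 and PABPC families except the eIF2 kinases and Eif4ebp1. This gave 53 of the 23473 probes on the array, for 51 of the 16390 genes named on it, of which 49 had a value on all 4 arrays and were tested. Of the 51 genes 4 were Argonaute genes, which carry their older Eif2c symbols on this array. Argonaute proteins bind small RNAs and are not translation factors, so these genes are described apart. Counts of the main fit are given with and without them. The promoter windows, and some counts under other settings, include them.

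The cells were NSCL61, a mouse glioma-initiating line derived from neural stem cells, labelled as from C57BL6 brain at P0. Control cells (2 arrays) were compared with cells carrying a short hairpin RNA (shRNA) against Eva1 (2 arrays), a cell adhesion gene now named Mpzl2. The array titles of the controls name the line alone, while the series title gives both sides as hairpin-expressing. Hygromycin was used to select transfected cells, for 2 weeks in one protocol text and 1 week in another. No label ties the arrays to separate cultures. The p-values therefore measure only how far these samples vary, and that variation may be technical.

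In initiation, eIF2 carries the initiator tRNA as a GTP-bound complex, eIF1 and eIF1A help to select the start codon, eIF3 holds the small ribosomal subunit together with the message, and eIF4F binds the cap. The exchange factor eIF2B reloads eIF2 with GTP and is the step blocked when stress kinases phosphorylate eIF2. In elongation, eEF1A delivers aminoacyl-tRNA and eEF2 moves the ribosome along, and poly(A)-binding proteins bridge the tail of the message to eIF4G.

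Levels are scaled intensities as deposited, with an array median near 25, and log2 changes are taken as Eva1 shRNA cells less control cells after quantile normalization. They were tested in limma over all 13765 genes, two-sided, with Benjamini-Hochberg adjustment and a threshold of 0.05. The arrays held values for 20662 to 21842 probes, and replicates correlated at r = 0.991 and 0.993 across probes, which are not independent. The hairpin's target Mpzl2 read 55.0 and 54.4 in control cells against 8.20 and 6.21 under the hairpin, 8.72-fold lower (limma adjusted p = 0.00105 over genes). Of 7 neural stem or progenitor markers with a probe, 4 were at or above 25 on each array, among them Vim and Nes. No astrocyte marker read 25 or above on any array, but Gfap, Aqp4 and Slc1a3 were not filled on all 4 arrays. Of the 6 stem markers tested, Sox9 and Fabp7 fell by 0.87 and 1.15 (log2). In all 5 changes were negative and 1 positive, that of Vim (0.33), which did not pass. The summed intensity of the stem markers was 16025 to 17097 in control and 20814 to 26644 in Eva1 shRNA cells, most of it Vim. The summed intensity of 6 fibroblast or mural markers was 190 to 218 in control and 468 to 621 in Eva1 shRNA cells, most of the latter from Acta2, which was under 25 in control cells. Of the 6, 3 had positive and 3 negative changes. All 3 positive ones passed in limma: Acta2 (6.22, adjusted p = 0.000874), Col1a2 (0.76, 0.0226) and Pdgfrb (0.54, 0.0421). None of the 3 negative ones passed. Dcn, the brightest of the 6 in control cells, went from 117 and 93.0 to 55.3 and 15.5 (-2.02, adjusted p = 0.0532). The sum of 6 microglia or blood markers was 215 to 242 in control and 161 to 166 in Eva1 shRNA cells. The largest part of it was Cd68, at 181 and 148 against 77.3 and 89.3, while Csf1r was 34.0 and 38.0 against 53.0 and 44.5. The part of these shifts in the results was not tested. In bulk RNA, fewer cells of a type and less RNA per cell cannot be told apart.

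Most translation factor genes did not pass the test. Of the 49 tested genes 6 rose (Pabpc4, Eef2k, Eif4g1, Eif2b5, Eif3i and Eif2b4) and 2 fell (Ago2 and 1 probe of Eif3j1), and 41 did not pass, so 16.3% passed where 26.0% of all genes did, and 31.3% of genes above the median level. Over all genes 12.5% rose and 13.5% fell, so the 12.2% of these genes that rose was near the background and the 4.08% that fell was below it. Without the Argonautes 6 of 45 genes rose and 1 fell. An unadjusted p under 0.05 was found for 16 of the 49 genes (32.7%) and for 40.1% of all genes. The median log2 change of the 49 genes was 0.21, beside -0.01 over all genes, and 32 were positive and 17 negative. In 28 genes (57.1%, against 66.7% of all genes) the groups did not overlap, 21 of them higher and 7 lower in Eva1 shRNA cells. That is 42.9% and 14.3% of the genes, against 32.6% and 34.1% of all genes. Without the Argonautes 32 changes were positive and 13 negative, with a median of 0.25. Of those 45 genes 14 (31.1%) had an unadjusted p under 0.05. The groups did not overlap in 26 of them (57.8%), 21 higher (46.7%) and 5 lower (11.1%). Changes were small in most of the 49 genes, and ran from -0.77 to 1.26.

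**Figure D1:**
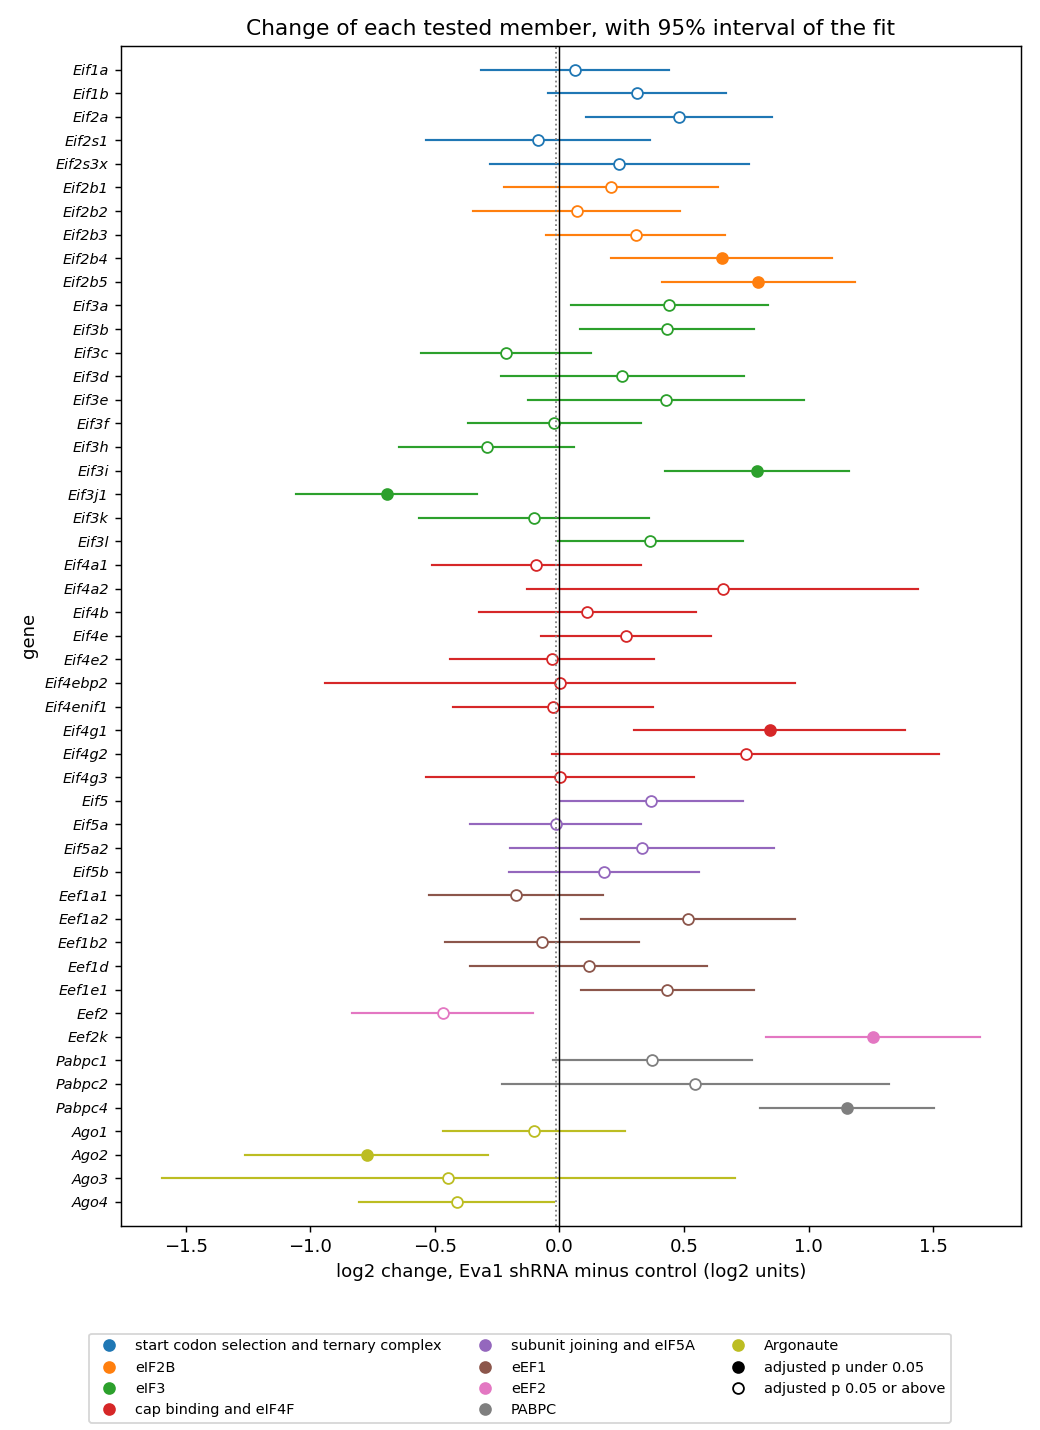
Log2 change of each of the 49 tested genes (horizontal axis, log2 units), grouped by role in colour, with the 95% interval of the limma fit as a line, on 2 arrays a group; the solid line marks 0 and the dotted line the median of all genes, -0.01. Filled circles are the 8 genes that passed the test, and most other intervals cross 0.

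The counts depended on how the variance was modelled, on the scaling, offset and probe filter, and on which arrays were used. With a variance trend on signal (limma eBayes with trend) 16 of the 49 genes rose and 3 fell, where 18.1% of all genes rose and 18.2% fell. With 16 intensity units added before log2, 16 rose and 4 fell, against 17.8% and 17.9% of all genes. With the authors' scaling 12 rose and 1 fell, against 19.7% and 9.41%, and without the dimmest 25% of probes 12 rose and 4 fell of 47, against 21.1% and 21.4%. With the trend and with 16 units added, 14 genes rose in both: the 6 named above with Eef1e1, Eif2a, Eif3a, Eif3b, Eif3l, Eif4g2, Eif5 and Pabpc1. With any array but control array 2 left out, 2 genes (4.08%) rose, Pabpc4 and Eef2k, and 0 fell. Over all genes 6.72% rose and 6.56% fell with control array 1 dropped, 3.95% and 5.34% with the first Eva1 shRNA array dropped, and 4.47% and 6.15% with the second dropped. Without control array 2, 6 rose and 0 fell, against 8.31% and 8.40% of all genes, and these included Eif4a2 and Eif4g2 in place of Eif2b4 and Eif2b5.

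The promoters of 5 of the genes that rose are shown for their sequence, which was not used in choosing or measuring the genes. The reference table held windows from 250 bases before to 50 after a start for 39 of the 51 genes, 54 windows in all. The stretches run from 150 bases before the start to 25 after it, 5′ to 3′ on the gene's strand (RefSeq, GRCm38.p6). Capitals mark CACGTG, the E-box core bound by MYC-type and related factors, and CCGGAAG, a core of ETS-type sites, on either strand.
Pabpc4, chr4:123282761-123282935, plus strand: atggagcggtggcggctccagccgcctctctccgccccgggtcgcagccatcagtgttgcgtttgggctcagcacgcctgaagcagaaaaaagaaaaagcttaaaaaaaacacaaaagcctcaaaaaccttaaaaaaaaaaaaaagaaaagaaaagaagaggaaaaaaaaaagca
Eef2k, chr7:120842681-120842855, plus strand: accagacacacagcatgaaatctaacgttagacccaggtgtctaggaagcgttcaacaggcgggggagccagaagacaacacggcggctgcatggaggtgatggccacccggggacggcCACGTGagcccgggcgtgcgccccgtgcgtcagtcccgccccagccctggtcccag
Eif4g1, chr16:20672577-20672751, plus strand: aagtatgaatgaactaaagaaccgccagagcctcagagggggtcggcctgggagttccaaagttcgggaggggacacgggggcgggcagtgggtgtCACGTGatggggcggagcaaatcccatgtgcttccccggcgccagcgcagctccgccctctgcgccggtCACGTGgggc
Eif2b5, chr16:20498667-20498841, plus strand: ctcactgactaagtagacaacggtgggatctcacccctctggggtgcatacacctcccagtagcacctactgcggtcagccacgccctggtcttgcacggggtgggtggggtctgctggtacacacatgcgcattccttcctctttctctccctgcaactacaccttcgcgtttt
Eif2b4, chr5:31193115-31193289, minus strand: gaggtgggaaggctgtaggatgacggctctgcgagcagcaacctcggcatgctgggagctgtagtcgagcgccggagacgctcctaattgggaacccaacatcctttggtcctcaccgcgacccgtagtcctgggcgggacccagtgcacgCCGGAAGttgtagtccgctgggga

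The stretches of Eef2k and Eif4g1 hold CACGTG, once and in 2 places, that of Eif2b4 holds CCGGAAG just after the start, and those of Pabpc4 and Eif2b5 hold neither. Eef2k has 3 annotated starts, and the one printed is the one with the E-box. Across all windows, CACGTG was in 13 of 54 (24.1%) of these genes' promoters and in 7.15% of all 32851 promoters. CCGGAAG was in 29.6% and 8.86%, and the GC-box core GGGCGG in 74.1% and 35.7%. The median G plus C content was 62.7% in these windows and 52.7% in all. Of 11 motifs searched on both strands, the CRE core TGACG was in 46.3% and 20.8%, ACGTG, which lies within the E-box, in 35.2% and 19.6%, and CCAAT in 27.8% and 37.4%. The full CRE TGACGTCA, which holds that core, was in 1.85% and 1.79%, and TGATGNAAN, a form of the amino acid response element, in 3.70% and 3.95%. The NRF1 motif was in 1.85% and 0.971%, the YY1 motif in 1.85% and 0.633%, and an interferon-type motif in 5.56% and 3.44%. The 11 tested genes with an E-box had a median log2 change of 0.27 and 2 that passed, and the 28 with a window and none had 0.15 and 4. Those 28 include the Argonaute genes Ago1, Ago3 and Ago4, with -0.10, -0.45 and -0.41, while no Argonaute gene is among the 11. The 4 that passed include Eif3j1, which fell on the probe used. The difference between the medians was not tested. A match is a description of these letters and not a bound site.

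All 5 subunits of eIF2B had positive changes, and 2 of them rose. Eif2b5 encodes the catalytic epsilon subunit. Its intensities were 766 and 699 in control and 1530 and 1274 in Eva1 shRNA cells. Both Eva1 shRNA values lay above both control values, and Eif2b5 was 1.74-fold higher (log2 change 0.80, standard error 0.15, limma adjusted p = 0.019). Eif2b4, the delta subunit, had 231 and 270 in control and 502 and 389 in Eva1 shRNA cells. It was 1.57-fold higher (0.65, standard error 0.18, limma adjusted p = 0.0487), just inside the threshold, and the groups did not overlap. With the replicate number as a block Eif2b4 had an adjusted p = 0.0755, and with blank cells filled 0.0789. Both calls were lost whichever array was left out. For Eif2b4 the adjusted p was 0.162 and 0.0761 when a control array was dropped, first then second, and 0.221 and 0.0879 when an Eva1 shRNA array was. For Eif2b5 the same order gave 0.0605, 0.0676, 0.11 and 0.0611.

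The remaining eIF2B subunits did not pass. Eif2b3, the gamma subunit, went from 297 and 331 to 450 and 431 without overlap, a log2 change of 0.31 (95% interval -0.06 to 0.67, adjusted p = 0.177). Eif2b1 and Eif2b2, the alpha and beta subunits, had 0.21 and 0.07. Eif2b2 had 1125 and 899 in control and 1212 and 1129 in Eva1 shRNA cells, and after normalization its groups overlapped. The group's median was 0.31.

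No gene of start codon selection and the ternary complex passed among 5 tested in limma, and 1 had an unadjusted p under 0.05. That was Eif2a, which encodes an alternative tRNA-binding factor distinct from eIF2, at 912 and 1015 in control and 1479 and 1483 in Eva1 shRNA cells. The groups lay apart, with a log2 change of 0.48 (95% interval 0.11 to 0.85, adjusted p = 0.0683). It passed with the variance trend (0.00705) and with 16 units added (0.00685). Eif1b, a close relative of the start codon factor eIF1, had 0.31, Eif2s3x, the gamma subunit of eIF2, 0.24, and Eif1a 0.06. Eif2s1, the alpha subunit of eIF2 that the stress kinases phosphorylate, had -0.08, and was dim on every array, at 9.88 to 13.1.

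The eIF3 subunits spread in both directions. Of 11 tested genes 1 rose, 1 fell and 9 did not pass, with a median of 0.25. Eif3i, a WD-repeat subunit, had 1866 and 2073 in control and 3856 and 3657 in Eva1 shRNA cells. The groups did not overlap and the gene was 1.73-fold higher (log2 change 0.79, standard error 0.15, limma adjusted p = 0.0167). Leaving out control array 1, Eva1 shRNA array 1 or Eva1 shRNA array 2 gave an adjusted p of 0.064, 0.0946 and 0.0881 for Eif3i, and leaving out control array 2 gave 0.0381.

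The core subunit genes of eIF3 had unlike values. Eif3a, the largest subunit, went from 421 and 344 to 605 and 559, a log2 change of 0.44 (95% interval 0.05 to 0.84, adjusted p = 0.0953). Eif3b, another core subunit, had 912 and 868 in control and 1396 and 1254 in Eva1 shRNA cells, with 0.43 (adjusted p = 0.0757). Neither gene's groups overlapped, and both passed with the variance trend. Eif3c, also of the core, had 7528 and 7650 against 7810 and 7667, nearly level as deposited. After normalization its log2 change was -0.21 (95% interval -0.56 to 0.13), and with the authors' scaling alone it was 0.03. Eif3e, Eif3l and Eif3d had 0.43, 0.37 and 0.25, and Eif3h, Eif3k and Eif3f had -0.29, -0.10 and -0.02, with none of the 6 passing.

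Eif3j1, the loosely held eIF3j subunit, was measured by 3 probes that disagreed. The probe used for the gene had intensities of 392 and 433 in control and 295 and 276 in Eva1 shRNA cells, 1.62-fold lower (log2 change -0.69, standard error 0.14, limma adjusted p = 0.0235). A second probe went up from 270 and 266 to 405 and 408 (0.42, adjusted p = 0.0762 over probes). The third went up from 68.8 and 87.9 to 117 and 113 (0.37, adjusted p = 0.163 over probes). No probe's groups overlapped, so the arrays separated on each probe, but not in the same direction. With the mean of the probes the log2 change of Eif3j1 was 0.03 (adjusted p = 0.884). The call was also lost with any array left out, at adjusted p = 0.0553 and 0.0737 with the first or second control array dropped and 0.11 and 0.114 with the first or second Eva1 shRNA array dropped. All 3 probes carry the old symbol Eif3s1, and whether a near-identical mouse gene for eIF3j shares their signal was not tested. No direction for the gene can be read from these probes.

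**Figure D2:**
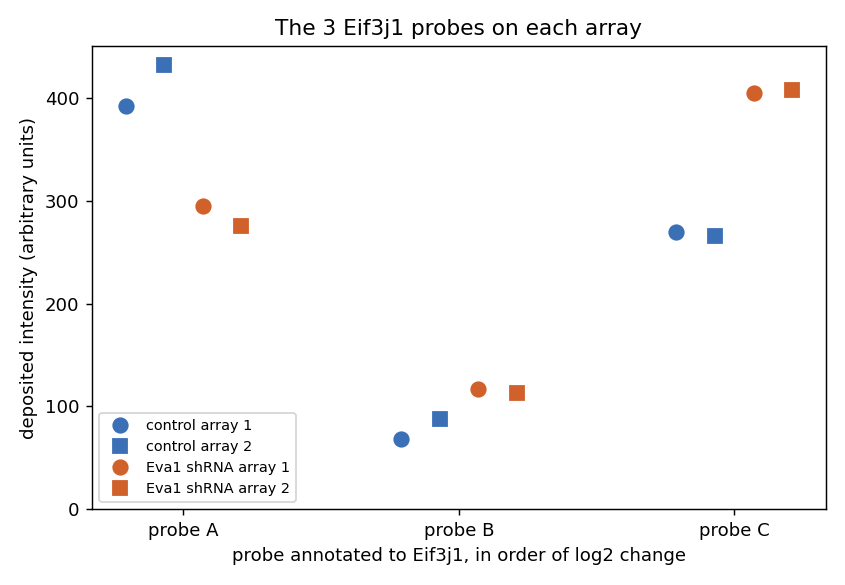
Deposited intensity (vertical axis, arbitrary units) of the 3 probes annotated to Eif3j1, in order of log2 change, with a point for each array, control in blue and Eva1 shRNA in orange. Probe A, the one used for the gene, is lower on both Eva1 shRNA arrays, 295 and 276 against 392 and 433, while probes B and C are higher on both.

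Among cap-binding factors 1 of 10 tested genes rose and 9 did not pass, with a median of 0.06. Eif4g1 encodes the main eIF4G scaffold, which joins the cap-binding protein, the helicase and poly(A)-binding protein. It had dim values of 21.7 and 33.1 in control and 54.5 and 55.2 in Eva1 shRNA cells, where the array median was 25. The groups did not overlap, and Eif4g1 was 1.79-fold higher (log2 change 0.84, standard error 0.22, limma adjusted p = 0.0414). The control arrays differed from each other more than the Eva1 shRNA arrays did. With blank cells filled the adjusted p was 0.0736. Without control array 1, Eva1 shRNA array 1 or Eva1 shRNA array 2 it was 0.101, 0.132 and 0.159, and without control array 2 0.0289.

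Eif4g2, a relative of eIF4G that lacks the cap-binding protein's site, and Eif4a2, an eIF4A helicase, had large changes with wide errors. Eif4g2 had 1127 and 2104 in control and 2907 and 2802 in Eva1 shRNA cells, a log2 change of 0.75 (95% interval -0.03 to 1.53, adjusted p = 0.135). Eif4a2 had 1637 and 2871 in control and 3547 and 4150 in Eva1 shRNA cells, 0.66 (95% interval -0.13 to 1.44, adjusted p = 0.181). In both genes control array 1 was the lowest of the 4 arrays by far and the groups did not overlap. Both passed with the variance trend. With control array 2 left out, so that the low array alone was the control, Eif4g2 had 1.21 and Eif4a2 1.10 and both passed (adjusted p = 0.0254 and 0.0402). With control array 1 left out they had 0.29 and 0.22 and did not pass (0.275 and 0.504). Eif4a1, the other eIF4A helicase, had 7079 and 6582 against 6909 and 8234 and -0.09 (95% interval -0.51 to 0.33), or 0.14 with the authors' scaling.

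The cap-binding protein gene Eif4e had 432 and 424 in control and 603 and 553 in Eva1 shRNA cells, a log2 change of 0.27 (95% interval -0.07 to 0.61, adjusted p = 0.205), with no overlap. Eif4b, a helicase cofactor, had 0.11, and Eif4e2, a relative of Eif4e, -0.03. Eif4ebp2, which binds and blocks eIF4E, had 0.00 with an interval of -0.94 to 0.94, so a change of nearly 2-fold either way was within its error. Eif4enif1, which carries eIF4E into the nucleus, had -0.03, and Eif4g3 0.00. Eif4e3 was blank on control array 1 and was not tested, with 2.73 on control array 2 and 9.03 and 5.32 on the Eva1 shRNA arrays.

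None of the 4 genes for subunit joining and eIF5A passed in limma, and 1 had an unadjusted p under 0.05. Eif5, the GTPase activator of eIF2, had 2127 and 2256 in control and 3340 and 2873 in Eva1 shRNA cells, 0.37 (95% interval 0.00 to 0.74, adjusted p = 0.123), without overlap. Eif5b, the GTPase that joins the subunits, had 0.18. Eif5a, the hypusine-bearing factor that helps ribosomes through difficult peptide bonds, had 8461 and 8251 against 10025 and 10213 as deposited. After normalization the log2 change of Eif5a was -0.01, with median centring 0.07 and with the authors' scaling 0.28, so it has no settled sign. Its relative Eif5a2 was dim and had 0.33.

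In elongation no eEF1 gene passed among 5 tested in limma, and 2 had an unadjusted p under 0.05. Eef1a1, the main tRNA-delivery factor, gave the brightest probe of the array on control array 1, at 58248, with 53350 on control array 2 and 48813 and 52617 on the Eva1 shRNA arrays. Its log2 change was -0.17 (95% interval -0.52 to 0.18, adjusted p = 0.401), and it ranked 1, 2, 5 and 3 by intensity on the 4 arrays. Eef1a2, the form known from neurons and muscle, had 13.8 and 11.7 in control and 22.4 and 19.9 in Eva1 shRNA cells. All 4 values lay under the array median, and the change was 0.52 (95% interval 0.09 to 0.95, adjusted p = 0.0809). Eef1e1, a part of the multi-tRNA synthetase complex, went from 1162 and 1078 to 1661 and 1682 without overlap (0.43, adjusted p = 0.0737). The exchange subunits Eef1b2 and Eef1d had -0.07 and 0.12.

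The translocase gene and the gene of its kinase had opposite signs. Eef2k encodes the kinase that phosphorylates eEF2 and thereby slows elongation. It had 10.3 and 11.1 in control and 34.6 and 25.7 in Eva1 shRNA cells, 2.39-fold higher (log2 change 1.26, standard error 0.17, limma adjusted p = 0.00705). It was the largest change among the 49 genes, and the call held with each array left out. Its control values lay under the array median of 25, and with 16 units added the log2 change was 0.67. Eef2 itself had 5635 and 5158 in control and 4426 and 4637 in Eva1 shRNA cells. The groups lay apart, with a log2 change of -0.47 (95% interval -0.83 to -0.11), and Eef2 did not pass (adjusted p = 0.0665). It passed with the variance trend (0.00726), with 16 units added (0.00593) and without the dimmest probes (0.0248), and with the authors' scaling the change was -0.25. These are levels of messenger RNA and do not measure eEF2 phosphorylation.

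Pabpc4 had the smallest adjusted p of the 49 tested genes (limma). It encodes an inducible cytoplasmic poly(A)-binding protein. Its intensities were 226 and 219 in control and 546 and 564 in Eva1 shRNA cells, 2.23-fold higher (log2 change 1.15, standard error 0.14, limma adjusted p = 0.00519). The arrays of each group lay close together and far from the other group, and the call held in all 14 alternatives, each array left out included. Pabpc1, the main form, went from 5589 and 4727 to 8342 and 7421. The groups did not overlap, with a log2 change of 0.37 (95% interval -0.03 to 0.77, adjusted p = 0.144), and with the authors' scaling it was 0.61 and passed (0.0429). Pabpc2 gave 2.35 and 1.63 against 4.01 and 2.44, near the lowest values of the arrays. Pabpc5 was blank on control array 1 and not tested, with 2.63, 2.32 and 1.72 on the others. Signal shared between probes of this family was not tested.

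**Figure D3:**
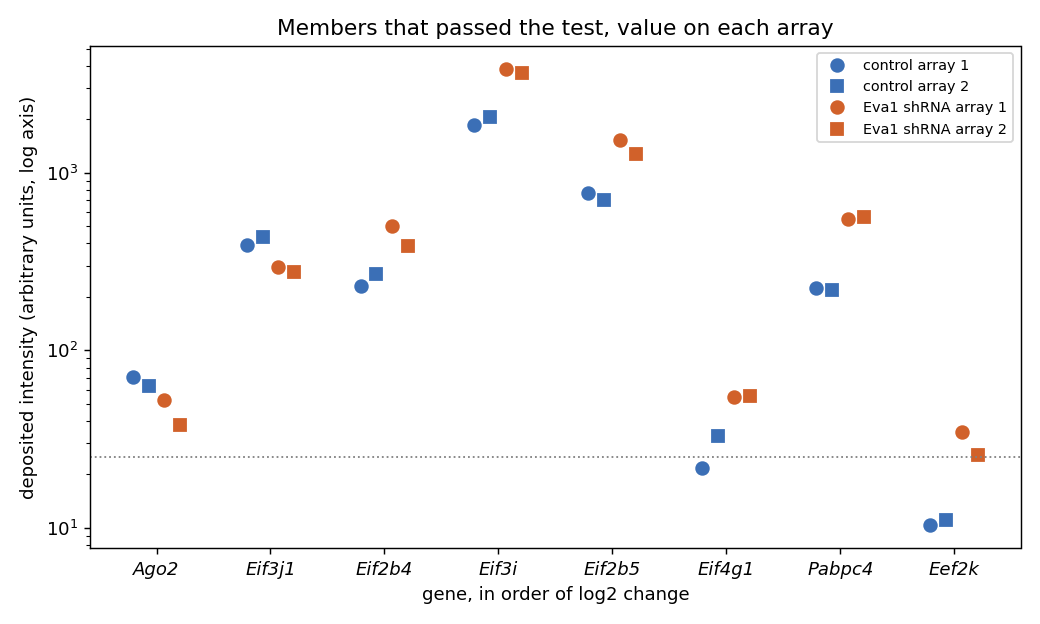
Deposited intensity (vertical axis, arbitrary units, log scale) on each array of the 8 genes that passed the test, in order of log2 change; blue is control, orange Eva1 shRNA, and the dotted line the array median of 25. The groups do not overlap in any of them, and the control values of Eef2k, 10.3 and 11.1, lie under the median.

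Of the 4 Argonaute genes 1 fell and 3 did not pass, and all 4 changes were negative, with a median of -0.43. Ago2, the Argonaute known for cutting its target RNA, had 71.0 and 63.2 in control and 52.8 and 38.1 in Eva1 shRNA cells. The groups did not overlap, and it was 1.71-fold lower (log2 change -0.77, standard error 0.19, limma adjusted p = 0.0394). With the authors' scaling the change was -0.58 and did not pass (0.0894), nor did it with blank cells filled (0.0692). It also failed the test with any array left out, at adjusted p = 0.14 and 0.0786 for the first and second control array and 0.0606 and 0.166 for the first and second Eva1 shRNA array. Ago4 had -0.41 (adjusted p = 0.11), Ago1 -0.10 and the dim Ago3 -0.45, with an interval of -1.59 to 0.70.

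After quantile normalization, the brightest of the 45 translation factor genes differed in sign from the rest. The bands of mean log2 signal were set after the values were seen. Probe signal does not rank transcripts of different genes. Below 6, 8 of 9 genes were positive, with a median change of 0.33, and from 6 to 8.5, 3 were positive and 2 negative, with 0.24. From 8.5 to 12, 20 of 22 were positive and the median was 0.34, and the groups of 15 did not overlap, all 15 higher. All genes of these bands had medians of -0.02, -0.01 and 0.01, and in the third 39.7% were higher without overlap. At 12 and above, 8 of 9 genes were negative, the median was -0.10 and 0 passed in limma, with 1 under an unadjusted p of 0.05. Of all 209 genes there, 122 were negative, the median was -0.06, 22.0% passed and 80 had an unadjusted p under 0.05. Pabpc1 was the positive one of the 9. Of these 9, Eif3c, Eif4a1 and Eif5a were also positive with the authors' scaling. As deposited, Eef1b2 averaged higher under the hairpin too, at 8325 and 8541 in control and 10784 and 8540 in Eva1 shRNA cells. So did Eif3k, at 4805 and 3904 against 5133 and 4184. The sign pattern of this band therefore depended on the normalization.

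**Figure D4:**
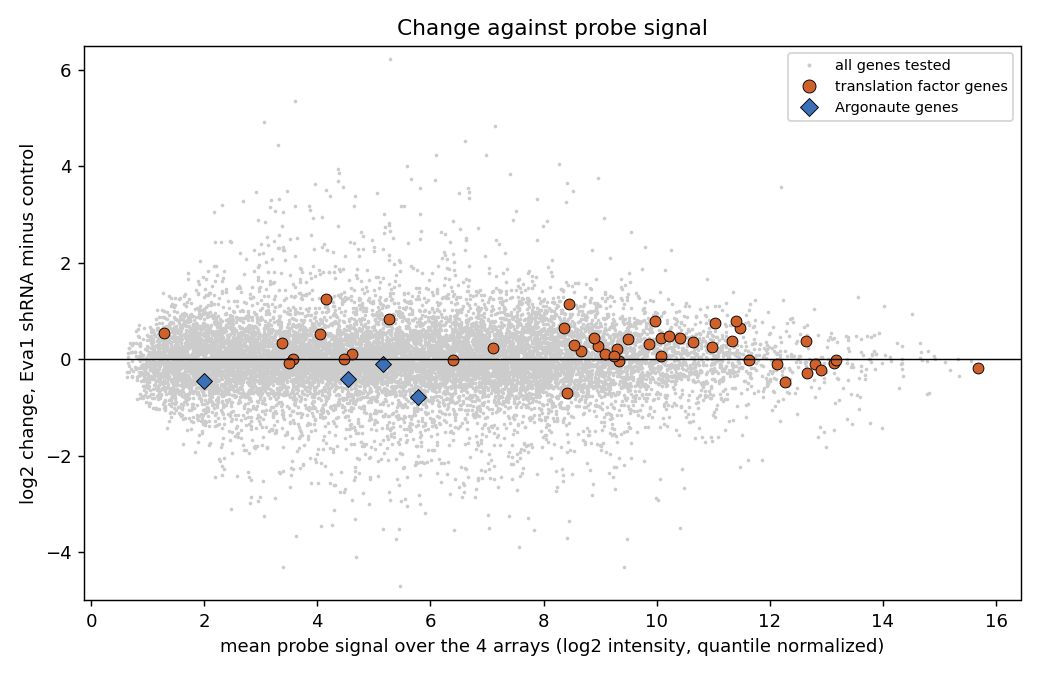
Log2 change (vertical axis) against the mean probe signal over the 4 arrays (horizontal axis, log2 intensity after quantile normalization) for all 13765 genes in grey, the 45 translation factor genes in orange and the 4 Argonaute genes in blue. From a signal of 8.5 to 12, 20 of 22 orange points lie above 0, and at 12 and above 8 of 9 lie below it. Several of these 9 change sign with the authors' scaling.

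Other genes of the pathway were read from 3 lists. Of 22 tested regulators of translation factors 2 rose, 1 fell and 19 did not pass, with a median of -0.07. Dph1, of the diphthamide modification of eEF2, had 33.6 and 34.2 in control and 68.7 and 68.1 in Eva1 shRNA cells (0.81, limma adjusted p = 0.0125). Dohh, which completes the hypusine of eIF5A, went from 436 and 435 to 883 and 707 (0.70, adjusted p = 0.03). The other tested genes listed for these modifications went both ways and did not pass. Dph5 had 0.51, Dph2 0.02, Dph6 -0.41 and the hypusine gene Dhps -0.22. Eif2ak2, the double-stranded RNA-activated eIF2 kinase, fell by 0.83 on the log2 scale, from 24.8 and 31.8 to 18.5 and 18.2 (adjusted p = 0.02). Mtor had -0.22, Eif4ebp1 -0.18 and the S6 kinase gene Rps6kb1 -0.02, and none of them passed. The highest adjusted p with 1 array left out was 0.0771 for Dph1 (without Eva1 shRNA array 2), and 0.149 for Dohh and 0.105 for Eif2ak2 (both without Eva1 shRNA array 1). With the authors' scaling Eif2ak2 had 0.0509, and with blank cells filled Dohh had 0.0526.

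Of 11 tested further initiation, termination and recycling factors 2 rose, 1 fell and 8 did not pass, with a median of 0.33. In 8 of the 11 the Eva1 shRNA arrays were higher without overlap and in 2 lower. That is 72.7% and 18.2%, against 32.6% and 34.1% of all genes. The regulators had 22.7% higher and 31.8% lower without overlap, and the mitochondrial translation factors 55.6% and 22.2%. Of all genes with a mean log2 signal of 6 to 8.5 and of 8.5 to 12, 38.7% and 39.7% were higher without overlap. Gspt1, the GTPase of translation termination, had 661 and 570 in control and 1129 and 1153 in Eva1 shRNA cells (0.75, limma adjusted p = 0.0211). Abce1, which splits ribosomes for reuse, went from 176 and 209 to 338 and 348 (0.66, adjusted p = 0.0324). Denr, a partner of Mcts1 in recycling and reinitiation, fell by 0.78, from 151 and 129 to 93.7 and 91.1 (adjusted p = 0.0197). With 1 array left out the adjusted p reached 0.11 for Gspt1 and 0.153 for Abce1 (without Eva1 shRNA array 2) and 0.102 for Denr (without Eva1 shRNA array 1). Abce1 had 0.0551 with blank cells filled. Of 9 tested mitochondrial translation factors 0 passed in limma, 3 had an unadjusted p under 0.05, and their median was 0.33. The counts of these lists are to be read beside the 12.5% of all genes that rose and the 13.5% that fell.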

How the data were processed

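The data were 1-colour 3D-Gene mouse arrays of Cy5-labelled RNA, 2 of control and 2 of Eva1 shRNA cells. The deposited intensity values are linear and were scaled by the authors to a median near 25 on each array, as the values show; no source used here gives the scanner, the background correction or the rule for blank cells.

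Platform symbols were updated through RefSeq names (GRCm38.p6), 16631 probes being named: 12622 symbols were current, 3947 updated, 59 ambiguous and 3 unmatched. Log2 values of the 19199 probes filled on all arrays were quantile normalized, since array medians differed by 0.274, above a limit of 0.1. Each gene took its probe of highest mean (13765 genes), and groups were compared with limma 3.58.1 (lmFit, eBayes) in R 4.3.3 on 2 residual degrees of freedom. The fit was also run on simulated data with far fewer genes changed than passed here, so that run does not measure false calls in these arrays. Figures used matplotlib 3.10.9.

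Named were Mpzl2, the genes that passed, in each role group the brightest gene and the largest change that did not pass, genes with blank cells or discordant probes, and up to 4 genes that passed in each further list. The other genes were named after their values were seen. Genes and lists were chosen with earlier results of these data known. No genome build is given for the probes, so coordinates are given only for RefSeq's promoter windows (GRCm38.p6). The number of arrays limits the precision. The alternatives are those of the closing section.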

Additional observations from a re-analysis of the deposited data

How the results depend on the processing

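Pabpc4 and Eef2k kept their calls in all 14 alternatives, and Mpzl2 its fall, at -1.71 with 16 units added. Higher and lower genes numbered 12 and 1 with the authors' scaling, 12 and 4 without the dimmest 25% of probes, 16 and 4 with 16 units added, and 16 and 3 with the variance trend. They numbered 4 and 1 of 51 with blank cells filled, where 1304 of all 16091 genes rose and 1442 fell. With the mean of a gene's probes they numbered 6 and 1, where 1716 of all 13765 genes rose and 1850 fell. Without Argonautes the higher and lower genes numbered 12 and 1, 12 and 2, 16 and 3, and 16 and 2 in the first 4 of these settings. With the mean of probes they numbered 6 and 0 (limma). The median change of 0.21 moved to 0.36 (authors' scaling), 0.15 (median centring), 0.13 (16 units) and 0.24 (every probe). Over all genes 2714 rose with the authors' scaling.

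With 1 array left out, 2 to 6 genes rose and 0 to 0 fell with or without Argonautes, the median ran from 0.13 to 0.26, and 544 to 1144 of all genes rose and 735 to 1156 fell. The change of Mpzl2 ran from -3.29 to -2.98. Among the genes named by rule, signs turned for Eif3c (0.0281), Eif4a1 (0.144) and Eif5a (0.276) with the authors' scaling. They also turned for Eif5a (0.0675) with median centring and Eif3j1 (0.033) with the mean of probes. Signs were not followed in this way for the other genes. Of those, Eef1b2, Eif3f and Eif3k had -0.07, -0.02 and -0.10 in the main fit but averaged higher under the hairpin as deposited. The cause was not tested. With 1 array left out, the changes of Ago3 ran from -1.13 to 0.236 and of Eif2b2 from -0.0855 to 0.227. Those of Eif4a1 ran from -0.247 to 0.0600 and of Eif5a from -0.0435 to 0.0185. Genes not named by rule turned too, among them Eif1a, from -0.0234 to 0.151.

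The replicate numbers are shared by the groups, but nothing says that they pair arrays, and deviations of same-numbered arrays correlated at -0.02. With the replicate block 5 of the 49 genes rose and 2 fell, where 1471 of all 13765 genes rose and 1631 fell.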
